A study of Homo sapiens with 6 samples.

Results

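The sites described here had a listed peak of the glucocorticoid receptor (GR) in every peak list of one cell line. A related line that also expresses the mineralocorticoid receptor (MR) had a peak there in only part of its lists. They were chosen by merging peaks that share at least 1 bp over the 6 dexamethasone peak lists and keeping merged sites with a peak in all 3 lists of the GR cell and in exactly 1 or 2 of the 3 lists of the MR/GR cell. The rule gave 4862 partly kept sites among 43713 merged sites, namely 2712 sites in 1 MR/GR-cell list (1-list sites) and 2150 sites in 2 MR/GR-cell lists (2-list sites). The groups were MR/GR cells with dexamethasone, GR cells with dexamethasone, MR/GR cells with vehicle and GR cells with vehicle, and each had 3 peak lists, numbered in the deposit and not in the labels. Both are stable lines made for the study from U-2OS, a human osteosarcoma line, and each receptor combination is represented by 1 line. Dexamethasone, a synthetic glucocorticoid, was given at 100 nM for 2 hr, vehicle was DMSO, and chromatin was precipitated with an antibody against GR in every group.

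GR is a ligand-activated transcription factor that moves to the nucleus once it has bound hormone and attaches to DNA at short palindromic response elements, mostly in chromatin that is already accessible. MR is its closest relative, recognises the same elements through a nearly identical DNA-binding domain and can pair with GR. A site listed in every GR-cell list, and in only some MR/GR-cell lists, lies between sites kept in full and sites not called at all in the MR/GR cell.

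Each list gives the position of its peaks without a height or score, and the sequencing depth behind it is unknown. A peak that is not listed may lie under the calling threshold, so "held" and "not held" refer to listed peaks alone. The dexamethasone lists held 3713, 10459 and 6660 peaks in the MR/GR cell (lists 1, 2 and 3), against 37650, 30912 and 26191 in the GR cell. Nothing in the labels ties the 3 lists of a group to separate cultures, and p-values therefore cover no more than list-to-list spread, possibly technical. Intervals are Wilson 95% intervals over sites and cover counting error only, since sites of one list share its library. No gene or sequence is given for any site, because an hg19 annotation and genome were not used here.

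The GR cell had 22935 sites held by all 3 of its lists, and the partly kept sites made up 21.2% of these (20.7 to 21.7). In the order of 0, 1, 2 and 3 MR/GR-cell lists, those sites numbered 15056, 2712, 2150 and 3017, or 65.6%, 11.8%, 9.37% and 13.2%. Just inside the rule, then, stand the 1-list and 2-list sites, and just outside it the 0-list and 3-list sites. Over all 43713 merged sites, 8411 sites or 19.2% had exactly 1 or 2 MR/GR-cell lists. Sites called in only 2 GR-cell lists fell outside the rule on the other side. They included 461 sites of 1 MR/GR-cell list and 163 of 2 lists, out of 7430. These counts follow from the rule and the list lengths and carry no test.

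Which MR/GR-cell list held a site was very uneven. Of the 1-list sites, 68 were held by list 1 alone, 1993 by list 2 alone and 651 by list 3 alone. List 2, the longest, therefore accounted for 73.5% of them (71.8 to 75.1). Of the 2-list sites, 174 were held by lists 1 and 2, 71 by lists 1 and 3, and 1905 by lists 2 and 3, the last being 88.6% (87.2 to 89.9). List 1, the shortest, held 313 of the 4862 partly kept sites, list 2 held 4072 and list 3 held 2627. Order of list length and order of sites held were the same.

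Over all sites of 3 GR-cell lists, the MR/GR-cell lists were close to nested. Among sites in all 3 GR-cell lists, list 2 held 95.8% of the 3330 sites of list 1 (95.1 to 96.5) and 87.2% of the 5644 sites of list 3 (86.3 to 88.1). In the other direction, list 1 held 45.01% of the 7089 sites of list 2, and list 3 held 69.4%. These shares include the 3017 3-list sites, which every list holds by definition. Among the partly kept sites alone the nesting was weaker. There list 2 held 174 of the 313 members of list 1 and 1905 of the 2627 members of list 3. By the counts above, a site in 1 list was most often a site of the longest list. A site in 2 lists was most often one that only the shortest list lacked.

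**Figure D1:**
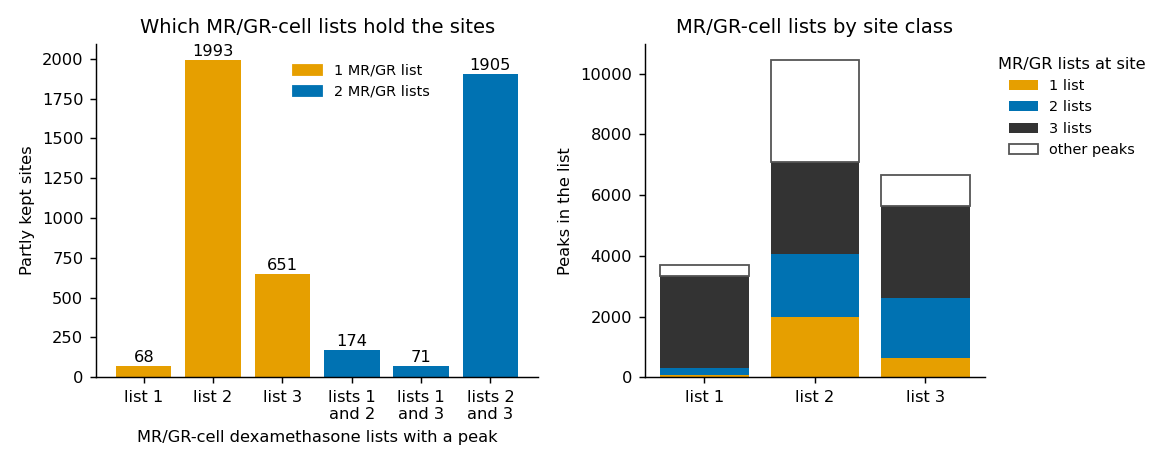
Left, number of partly kept sites (y axis) by the MR/GR-cell dexamethasone list or lists that hold a peak there (x axis), with 1-list sites in orange and 2-list sites in blue. Right, peaks in each MR/GR-cell dexamethasone list by the number of MR/GR-cell lists at the site, with peaks outside the sites of 3 GR-cell lists in white. List 2 alone (1993 sites) and lists 2 and 3 (1905 sites) hold most of the members.

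The members took up unequal shares of the MR/GR-cell lists and more even shares of the GR-cell lists. Partly kept sites carried 8.43% of the peaks of list 1, 38.9% of list 2 and 39.4% of list 3 in the MR/GR cell. In the GR cell the shares were 12.9% in list 1, 15.7% in list 2 and 18.6% in list 3, each list having exactly 1 peak at each of the 4862 sites. List 1 of the MR/GR cell consisted mainly of sites held by all 6 lists, with 81.3% of its peaks there, against 28.8% in list 2 and 45.3% in list 3. The GR-cell lists share 1 set of members, so their shares differ with their lengths alone.

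Sites of 1 MR/GR-cell list were less dominated by list 2 where the GR cell was reproducible. List 2 alone held 89.1% of the 1926 sites of 1 MR/GR-cell list that had no GR-cell peak, 87.3% of the 575 with 1 GR-cell list, 80.9% of the 461 with 2 GR-cell lists and 73.5% of the 2712 with 3. The direction was downward at each step, and the difference was not tested, since the same lists define the classes.

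A list that lacked a partly kept site seldom had a peak within 500 bp. For each partly kept site and each MR/GR-cell list without a peak there, the nearest part of that list was searched. A peak of that list lay within 100 bp of the site edge in 6 of 5424 such cases for 1-list sites (0.111%, 0.0507 to 0.241) and in 4 of 2150 for 2-list sites (0.186%, 0.0724 to 0.477). Within 500 bp the shares were 0.479% and 0.372%. At 0-list sites the shares were lower, 0.0399% within 100 bp and 0.128% within 500 bp. Within 5000 bp they were 5.59% (5.01 to 6.23) for 1-list sites and 5.72% (4.82 to 6.78) for 2-list sites, against 2.72% (2.57 to 2.87) for 0-list sites. These shares pool lists of unlike length, and 1905 of the 2150 cases at 2-list sites were gaps of list 1, the shortest. By missing list, the 5000 bp shares at 1-list and 2-list sites were 3.78% and 4.20% for list 1. They were 7.93% and 19.7% (14 of 71) for list 2, and 7.08% and 16.7% (29 of 174) for list 3. At 0-list sites they were 1.35%, 4.26% and 2.54% for lists 1 to 3. Within 500 bp the shares for list 2 were the highest of the 3 lists. They were 1.39% (10 of 719) at 1-list sites and 5.63% (4 of 71) at 2-list sites. No partly kept site held more than 1 peak of any list, so no member was a fusion of neighbouring peaks of the same list.

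The GR-cell peaks themselves were placed more closely together at sites that more MR/GR-cell lists held. All peaks of a list share 1 width, apart from 1 shorter peak, so the centre marks the position a list assigns. The span of the 3 GR-cell centres had a median of 51 bp at 0-list sites, 43 bp at 1-list sites, 38 bp at 2-list sites and 32 bp at 3-list sites. The middle of the distribution, between the 25th and 75th percentiles, ran from 25 to 69 bp at 1-list sites and from 23 to 61.8 bp at 2-list sites. In the same order of 0 to 3 lists, 49.5%, 59.6%, 66.6% and 75.6% of the sites had all 3 centres within 50 bp. The distributions overlapped widely, and the partly kept sites lay between the neighbouring classes on both sides.

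This order appeared in each pair of GR-cell lists. Between lists 1 and 2 the median offset of the centres was 28, 23, 21 and 17 bp at 0-list, 1-list, 2-list and 3-list sites. Between lists 1 and 3 it was 32, 28, 24 and 19 bp. Between lists 2 and 3 it was 31, 26, 24 and 19 bp. It also appeared for each MR/GR-cell list taken by itself. GR-cell sites held by list 1 had a median span of 32 bp, against 48 bp for those it did not hold. For list 2 the values were 37 bp for held and 50 bp for other sites, and for list 3 they were 34 bp and 50 bp. The centres and the classes come from the same 6 lists as the rule, so these values are descriptions. The pairs share GR-cell lists, and the 3 MR/GR-cell lists share the 3017 3-list sites. Neither the pairs nor the lists are therefore independent of each other. The direction in 3 of 3 lists is given as a count. Even with independent lists, an exact sign test over 3 cannot go below p = 0.25.

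Within the 1-list class the span depended on the list that held the site. It had a median of 45 bp (27 to 72 bp, 25th to 75th percentile) at the 1993 sites of list 2 alone and of 37 bp (22 to 61.5 bp) at the 651 sites of list 3 alone. At the 68 sites of list 1 alone it was also 37 bp. Sites of list 3 alone thus resembled 2-list sites in this measure, with 67.1% of spans at or under 50 bp, beside 66.6% for all 2-list sites. Sites of list 2 alone had 56.9%.

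**Figure D2:**
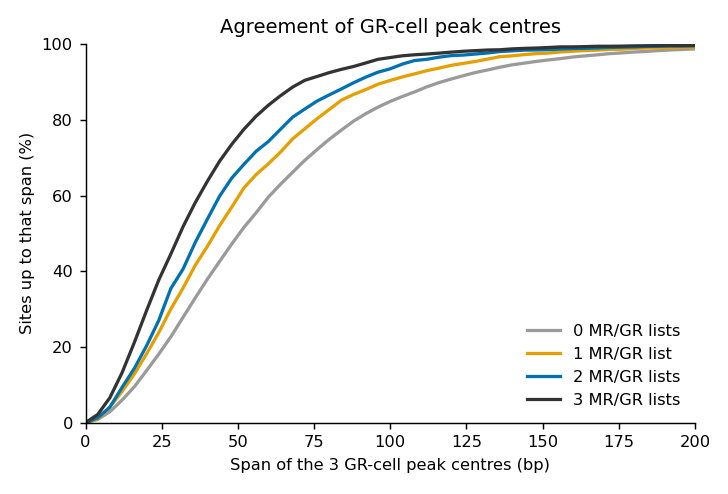
Cumulative share of sites in all 3 GR-cell lists (y axis, percent) by the span of their 3 GR-cell peak centres (x axis, bp), with 1 line per number of MR/GR-cell lists at the site. The lines are ordered from 0 to 3 lists, with medians of 51, 43, 38 and 32 bp.

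MR/GR-cell peaks at partly kept sites lay near the GR-cell centre. In list 2 the median distance from the mean GR-cell centre was 33.0 bp at 1-list sites, 31.0 bp at 2-list sites and 21.3 bp at 3-list sites. In list 3 it was 30.3 bp, 27.0 bp and 20.3 bp. In list 1 it was 39.3 bp over 68 sites, 29.7 bp over 245 sites and 28.3 bp over 3017 sites. The overlap that the rule asks for bounds these distances, so they describe the members without a test. The merged sites had a median width of 438 bp in the 1-list class and 436 bp in the 2-list class, beside 438 bp for 0-list and 428 bp for 3-list sites.

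Vehicle lists were not used to choose the sites, and they gave the comparison that is independent of the rule. Without ligand, most GR stays outside the nucleus, and these lists were short, with 132, 11 and 40 peaks in the MR/GR cell and 122, 238 and 228 in the GR cell. A peak of at least 1 vehicle list overlapped 59 of the 4862 partly kept sites, or 1.21% (0.942 to 1.56). The background was 0.965% over all 43713 merged sites and 0.671% over the 22935 sites in all 3 GR-cell lists. Of the 59 sites, 21 had a peak in an MR/GR-cell vehicle list and 54 in a GR-cell vehicle list.

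Occupancy without ligand did not follow the order of MR/GR-cell lists. It was 0.485% (0.386 to 0.609) at 0-list sites, 1.51% (1.116 to 2.04) at 1-list sites, 0.837% (0.530 to 1.32) at 2-list sites and 0.729% (0.482 to 1.10) at 3-list sites. Most of the marked 1-list sites had a GR-cell vehicle peak: of 41 sites, 2 had a peak in MR/GR-cell vehicle lists alone, 28 in GR-cell vehicle lists alone and 11 in lists of both lines. MR/GR-cell vehicle lists marked 13 of the 2712 1-list sites (0.479%, 0.280 to 0.818) and 8 of the 2150 2-list sites (0.372%, 0.189 to 0.733), but 5 of the 15056 0-list sites (0.0332%) and 1 of the 3017 3-list sites (0.0331%). GR-cell vehicle lists marked 39 1-list sites (1.44%, 1.05 to 1.96) and 15 2-list sites (0.698%, 0.423 to 1.15), beside 70 0-list sites (0.465%) and 22 3-list sites (0.729%).

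List by list, the share of 1-list sites with a vehicle peak was 0.479%, 0% and 0.0737% in lists 1 to 3 of the MR/GR cell, and 0.737%, 0.996% and 0.701% in lists 1 to 3 of the GR cell. The shares of 0-list sites were 0.0266%, 0% and 0.00664% in the MR/GR cell, and 0.159%, 0.232% and 0.286% in the GR cell. The 1-list share was higher in 5 of 6 lists, and the remaining list, with 11 peaks, marked neither class. For that list, a count of 0 of 2712 sites allows a share of up to 0.111%. Averaged over the 6 lists the 1-list sites exceeded the 0-list sites by 0.379 percentage points (SE 0.120, exact sign-flip p = 0.0625, two-sided, the smallest value possible with 1 tied list). Here and in the class comparisons that follow, lists of 1 vehicle sample per line were pooled over the lines as independent pairs. The SE and p therefore do not cover the spread between samples or lines.

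Against the other classes the outcome was similar or less clear. The 1-list share exceeded the 3-list share by 0.327 points (SE 0.110, higher in 5 of 6 lists, exact sign-flip p = 0.0625). It exceeded the 2-list share by 0.211 points (SE 0.0928, higher in 4 of 6 lists, exact sign-flip p = 0.125). After Benjamini-Hochberg adjustment over these 3 comparisons the exact sign-flip p-values were 0.0938 against 0-list, 0.125 against 2-list and 0.0938 against 3-list sites, so none passed 0.05. These comparisons were added after the values were seen.

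Of the 41 marked 1-list sites, 38 were held by MR/GR-cell dexamethasone list 2 alone, which made up 73.5% of the class. Of the 1993 sites held by list 2 alone, 38 had a vehicle peak (1.91%, 1.39 to 2.61). Of the 651 sites of list 3 alone, 2 did (0.307%, 0.0843 to 1.113), and of the 68 sites of list 1 alone, 1 did (1.47%, 0.260 to 7.87). When list 2 was left out and sites in exactly 1 of the other lists were taken, the share was 0.751%, against 1.36% without list 3 and 1.45% without list 1. Leaving out a list also moved 2-list sites into the set. Without list 2, most of the 2797 sites were the 1905 2-list sites of lists 2 and 3. This omission therefore cannot isolate the part of list 2. At sites without any GR-cell peak, vehicle peaks overlapped 34 of the 1716 sites of list 2 alone (1.98%, 1.42 to 2.76), 2 of the 148 sites of list 3 alone (1.35%, 0.371 to 4.79) and 0 of the 62 sites of list 1 alone, and the intervals of lists 2 and 3 overlapped. The 34 sites were marked mainly by MR/GR-cell vehicle lists (25 sites, and 12 by GR-cell ones), and the 38 sites mainly by GR-cell vehicle lists (12 sites by MR/GR-cell and 36 by GR-cell ones). With the 1-list sites of list 1 or 3 alone, the mean difference over the 6 vehicle lists was 0.0902 points against 0-list, -0.0782 against 2-list and 0.0374 against 3-list sites (exact sign-flip p = 0.125, 0.0625 and 0.375). The part of library differences in this pattern was not tested.

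**Figure D3:**
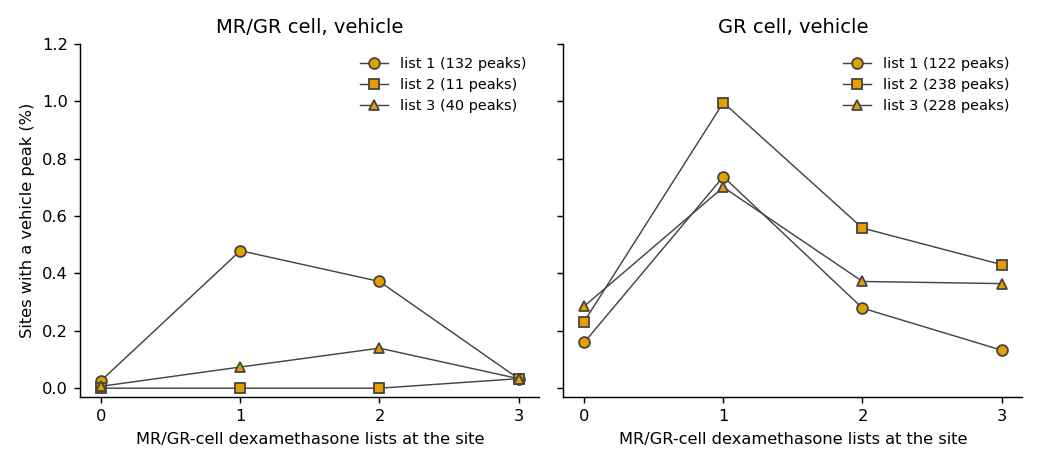
Share of sites with a vehicle peak (y axis, percent) by the number of MR/GR-cell dexamethasone lists at the site (x axis), for sites in all 3 GR-cell lists, with 1 marker per vehicle list of the MR/GR cell (left) and of the GR cell (right). Each of the 3 GR-cell vehicle lists is highest at 1-list sites, between 0.701% and 0.996%.

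The share of vehicle peaks that lay at partly kept sites was then compared between the lines. In the MR/GR cell, 21 of 132, 0 of 11 and 5 of 40 vehicle peaks lay there, or 15.9%, 0% and 12.5%. In the GR cell, 26 of 122, 39 of 238 and 27 of 228 did, or 21.3%, 16.4% and 11.8%. The lists of the lines overlapped. The means were 9.47% ± 8.38 in the MR/GR cell and 16.5% ± 4.74 in the GR cell (SD, n = 3 lists each), a difference of -7.04 percentage points (SE 5.56, exact permutation p = 0.4, two-sided). It was -2.31 points without MR/GR-cell vehicle list 2, the one with 11 peaks, and -4.64 points without GR-cell vehicle list 1. For 1-list sites alone the means were 4.95% ± 4.92 in the MR/GR cell and 12.02% ± 4.07 in the GR cell (exact permutation p = 0.2, n = 3 lists each), and for 2-list sites 4.52% ± 3.98 and 4.49% ± 0.852 in the same order (exact permutation p = 1, n = 3 lists each). With 3 lists against 3, no exact permutation p can fall below 0.1.

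Few members were marked by several vehicle lists. At least 2 of the 6 vehicle lists held 23 of the 1-list sites (0.848%) and 9 of the 2-list sites (0.419%), against 25 of the 0-list sites (0.166%) and 4 of the 3-list sites (0.133%). The sites named next were taken in order of the number of vehicle lists, and then by GR-cell dexamethasone peaks within 10 kb. Coordinates are those of the hg19 build, counted from 1.

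Among 1-list sites, chr2:200820098-200820643 and chr14:70826285-70826712 ranked first, each with a peak in 5 vehicle lists, namely lists 1 and 3 of the MR/GR cell and all 3 of the GR cell. With dexamethasone the chromosome 2 site was held by MR/GR-cell list 2 alone, its peak 19.3 bp from the mean GR-cell centre, although the GR-cell centres spanned 151 bp. The chromosome 14 site was held by list 1 alone, at 70.0 bp, and its GR-cell centres spanned 40 bp. It was the single site of list 1 alone with any vehicle peak. The sites were isolated, with the nearest other site of 3 GR-cell lists 121 kb and 51.1 kb away.

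The next 1-list sites were all held by MR/GR-cell list 2 alone. They were chr11:47600299-47600741 and chr12:133405315-133405742, each in MR/GR-cell vehicle list 1 and all 3 GR-cell vehicle lists, and chr16:89787191-89787614, in MR/GR-cell vehicle list 1 and GR-cell vehicle lists 2 and 3. The chromosome 16 site had 6 GR-cell dexamethasone peaks within 10 kb and another reproducible site 1.14 kb away. The chromosome 11 and chromosome 12 sites had 3 such peaks, their own.

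Among 2-list sites, chr3:128879918-128880345 and chr17:72510526-72511002 were each in 5 vehicle lists, again lists 1 and 3 of the MR/GR cell and all 3 of the GR cell. They were followed by chr11:118306813-118307236, in MR/GR-cell vehicle list 1 and all 3 GR-cell vehicle lists, then chr19:4791382-4791887, in MR/GR-cell vehicle lists 1 and 3 and GR-cell vehicle list 2, and chr1:211432229-211432681, in MR/GR-cell vehicle list 1 and GR-cell vehicle lists 1 and 3. All 5 were held by MR/GR-cell dexamethasone lists 2 and 3 and missed by list 1. At the site on chromosome 11 the GR-cell centres spanned 7 bp and the MR/GR-cell peaks lay 3.67 and 15.7 bp from their mean, the closest agreement among these 5. At the site on chromosome 19 the span was 144 bp and the distances 91.0 and 106 bp.

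Sites just outside the rule can be set beside them. The first 0-list sites were chr17:17990966-17991446, in MR/GR-cell vehicle list 1 and all 3 GR-cell vehicle lists, and chr1:42800824-42801247, in the 3 GR-cell vehicle lists. The first 3-list sites were chr3:119395820-119396259, in all 6 vehicle lists, and chr19:41731819-41732334, in the 3 GR-cell vehicle lists. Sites occupied in most vehicle lists therefore occurred in each class.

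Partly kept sites lay in slightly denser neighbourhoods than sites not held in the MR/GR cell. Another site of 3 GR-cell lists lay within 10 kb, edge to edge, of 29.1% of 1-list sites (27.4 to 30.8) and 28.6% of 2-list sites (26.7 to 30.5). The share was 23.1% (22.4 to 23.7) for 0-list sites and 33.4% (31.7 to 35.1) for 3-list sites, and 25.6% over all 22935 sites. The nearest such site was at a median of 23.03 kb from 1-list sites and 22.7 kb from 2-list sites, beside 30.0 kb from 0-list and 18.7 kb from 3-list sites. The intervals of the 1-list and 2-list sites overlapped in this measure.

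Partly kept sites had a site kept in full close by more often than sites not held did. A site of all 6 dexamethasone lists lay within 10 kb of 173 1-list sites (6.38%, 5.52 to 7.36) and 149 2-list sites (6.93%, 5.93 to 8.08), against 5.04% over all sites of 3 GR-cell lists. The share was 3.13% (2.87 to 3.43) for 0-list and 11.97% (10.9 to 13.2) for 3-list sites. Among the neighbours within 10 kb of a 1-list site, 20.3% were 3-list sites and 50.6% were 0-list sites. Around 2-list sites the shares were 22.8% and 45.2%. Over all sites of 3 GR-cell lists, 13.2% were 3-list and 65.6% were 0-list sites. The neighbours come from the same 6 lists that define the classes, so these shares are descriptions.

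**Figure D4:**
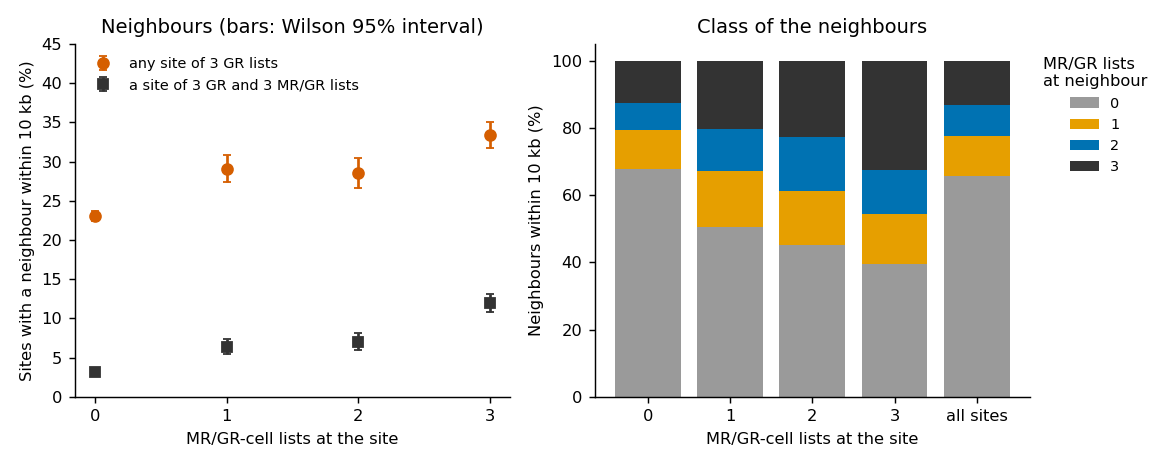
Left, share of sites in all 3 GR-cell lists with a neighbour within 10 kb (y axis, percent) by the number of MR/GR-cell lists at the site (x axis), for any neighbour in 3 GR-cell lists and for neighbours in all 6 dexamethasone lists, with Wilson 95% intervals. Right, class of the neighbours within 10 kb by class of the site, with the classes of all sites at the far right. The share of neighbours held by all 6 lists is 20.3% at 1-list and 22.8% at 2-list sites.

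Partly kept sites were found on every numbered chromosome and on X. As a share of the sites of 3 GR-cell lists they ranged over the autosomes from 19.1% on chromosome 14 to 24.4% on chromosome 17, with a median of 21.5%. On chromosome X the share was 13.5% (11.1 to 16.3, 89 of 659 sites), against 21.4% on the autosomes together (20.9 to 21.98). The 1-list, 2-list and 3-list classes were all lower there, and 0-list sites made up 80.9% on X against 65.2% on the autosomes. The 1-list sites made up 6.98% of the sites on X (5.27 to 9.19), against 11.98% on the autosomes (11.6 to 12.4), and the 2-list sites made up 6.53% (4.88 to 8.67), against 9.46% (9.08 to 9.85). The 3-list sites, outside the rule, made up 5.61% (4.10 to 7.64), against 13.4% (12.9 to 13.8). The lowest single autosomes were chromosome 14 for 1-list sites, with 9.76%, and chromosome 20 for 2-list sites, with 7.23%. These shares come from the lists that define the classes, so they carry no test.

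The shares of sites kept in full and in part are given side by side for 4 chromosomes. On chromosome 17, which had the highest partly kept share, 16.02% of the sites were 3-list sites, 14.5% were 1-list and 9.94% were 2-list sites. On chromosome 20, where 20% of the sites were 3-list sites, 12.3% were 1-list and 7.23% were 2-list sites. On chromosome 22 the 3-list share was 18.7%, with 12.1% 1-list and 10.5% 2-list sites. On chromosome 13 the 3-list share was 7.58%, with 14.0% 1-list and 7.58% 2-list sites. The lists that held the members were alike on X and elsewhere for the longer lists. List 2 held 87.6% of the partly kept sites on X and 83.7% on the autosomes, list 3 held 58.4% and 53.9%, and list 1 held 2.25% (2 of 89 sites) and 6.52%.

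**Figure D5:**
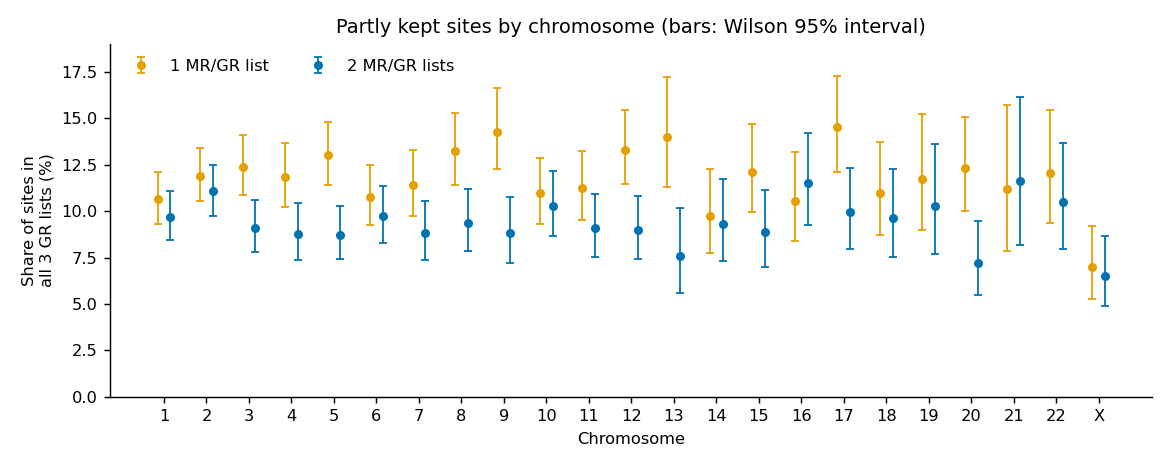
Share of the sites of 3 GR-cell lists (y axis, percent) that are 1-list sites (orange) or 2-list sites (blue) on each chromosome (x axis), with Wilson 95% intervals. Chromosome X has the lowest point of either class, 6.98% for 1-list and 6.53% for 2-list sites.

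Most stretches of the genome with a site of 3 GR-cell lists also held a member. In windows of 1 Mb, 2028 of the 2815 windows with a site of 3 GR-cell lists held at least 1 partly kept site, and 208 held 5 or more. The most, 11 sites, fell in chr2:47000001-48000000, with 7 1-list and 4 2-list sites beside 4 0-list and 2 3-list sites. The 2 next windows held 10 partly kept sites each. They were chr10:44000001-45000000, with 3 1-list and 7 2-list sites, and chr8:134000001-135000000, with 6 1-list and 4 2-list sites, each beside 13 0-list and 4 3-list sites. These windows were chosen after their values were seen. Members are 21.2% of the sites of 3 GR-cell lists, and the window counts to be had from that share alone were not computed. At the scale of 10 kb, another partly kept site lay near 9.37% of 1-list and 10.2% of 2-list sites. The share was 5.12% for 0-list and 11.1% for 3-list sites.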

How the data were processed

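GR ChIP-seq of 4 immunoprecipitation samples (2 lines, vehicle or dexamethasone), each with 3 peak lists, was used, and 2 input samples had no list used here. The labels give a dose of 100 nM for the GR-cell input and no dose for the MR/GR-cell input. Which input served which list is not given, so the controls may differ in treatment between the lines. Tools listed in the submitters' processing notes are HOMER 4.8.3, Picard 1.115, SAMtools 1.3.1, Bowtie and Trim Galore 0.4, with hg19 as the build; their roles, their settings and the calling threshold are among what is not given in the sources used here. Each deposited list gives, for each peak the authors called, its chromosome, start and end, without scores or depth; the lists of a sample are numbered 1 to 3 in the deposit, and what a number stands for is not stated in the labels.

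From them, peaks of the 6 dexamethasone lists were merged at an overlap of at least 1 bp, which gave the same 43713 sites as bedtools 2.31.1. Centres, neighbours (10 kb) and vehicle overlaps were computed with SciPy 1.17.1, pandas 2.3.3 and numpy 2.4.6 under Python 3.11.15, and plotted with matplotlib 3.10.9. The calls were checked on simulated lists of well separated sites, which does not test how sites lying close together are joined. Lists were compared by exact permutation or sign-flip tests, two-sided. Up to 5 sites per class (2 for 0-list and 3-list sites) are named, ranked by vehicle lists and then by GR-cell peaks within 10 kb. The members, lists and tests were chosen with earlier results of these data known. Sequence content and gene context were planned but not run, for want of an hg19 genome and annotation in the sources used here. Alternatives were other merging criteria, the main chromosomes, other distances, pairing by list number, and omission of single lists.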

Additional observations from a re-analysis of the deposited data

How the results depend on the processing

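Of 153 alternatives, 123 were counted as kept, 29 as moved and 1 as reversed. A number of sites counted as kept within 1.5-fold of the main value, so 4036 against 2712 1-list sites was kept. A difference counted as kept if its sign was unchanged, so 0.0902 against 0.379 points was kept. A share counted as kept if it lay inside the Wilson interval of the main share. All the moved alternatives were shares. Many of these changed what was counted, such as another distance or 2 GR-cell lists in place of 3. The 123 include 42 checks of the number of lists at named sites. The tally therefore does not show how closely the values were kept. The number of 1-list sites ranged from 2731 to 4036 with 1 list left out (4036 without MR/GR-cell list 3) and that of 2-list sites from 2153 to 2244, where only GR-cell lists could be left out, since 2 of 2 MR/GR-cell lists is no longer part of the lists. Peak centres at most 100 bp apart gave 2576 and 2116 sites. The vehicle difference of -7.04 points between the lines ranged from -10.3 to -2.31 with 1 vehicle list left out. A replicate block for the list number left it at -7.04 (exact sign-flip p = 0.5, two-sided); the numbers come from the deposited lists, and the labels do not tie equal numbers to a shared culture or day. A vehicle peak in at least 2 lists marked 0.848% of 1-list and 0.419% of 2-list sites. The 1-list share was 0.417% at sites of MR/GR-cell list 1 or 3 alone, and the 1-list difference was then 0.0902 points over 0-list, -0.0782 over 2-list (the reversal) and 0.0374 over 3-list sites. This split was chosen after seeing the data, as were all alternatives for the class differences, the centre shares, the 3-list neighbours and the named sites, and the omission of MR/GR-cell dexamethasone lists for the vehicle share. With 1 list left out, the share ranged from 0.751% to 1.51% for 1-list sites (1.07% without GR-cell vehicle list 2) and from 0.605% to 0.837% for 2-list sites. The 0.751% was without MR/GR-cell dexamethasone list 2, where most sites counted were 2-list sites under the main rule. With 1 vehicle list left out, the 1-list excess ranged from 0.303 to 0.455 points over 0-list, 0.161 to 0.266 over 2-list and 0.271 to 0.398 over 3-list sites. A neighbour of 3 GR-cell lists lay within 5 kb of 13.8% of 1-list and 12.9% of 2-list sites and within 50 kb of 70.2% and 71.2%. With neighbours in at least 2 GR-cell lists the shares within 10 kb were 36.1% and 34.7%, and with 1 list left out 28.5% to 33.8% and 29.0% to 33.6%. A 3-list site lay within 5 kb of 3.13% and 3.53% and within 50 kb of 21.6% and 22.5%, with 6.30% to 6.82% and 6.83% to 7.53% within 10 kb when 1 GR-cell list was left out. With 2 GR-cell lists in place of 3, centres within 50 bp were found at 69.5% to 73.1% of 0-list, 75.6% to 80.01% of 1-list, 80.6% to 83.6% of 2-list and 86.2% to 89.3% of 3-list sites, since fewer lists span less. All 42 alternatives for named sites kept their number of MR/GR-cell lists. Sequence and gene alternatives were not run.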
